A study of Mus musculus with 11 samples.

Results

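Meg3, Mirg, Snhg11 and Miat are long non-coding RNAs that stay largely in the nucleus and are best known from neurons, so they are among the RNAs that single-nucleus sequencing of brain captures well. They were chosen by gene symbol from a list of 6 neuronal nuclear non-coding RNAs, and 4 of these 6 were analysed, of 31053 genes in the matrices. Rian and Snhg14 were not analysed here. Their levels were measured in 11 mice (female by the labels, whereas the study's methods name male mice for RNA sequencing), 1 library of sorted cortical nuclei per mouse, as UMI counts, where a UMI tags 1 captured RNA molecule. The comparisons ask how the RNAs differ between cell types, how much of the neuronal level is found in glia, and whether the levels differ between 4 genotypes in a study of tau and microglial NF-κB.

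The genotypes were ikbkb+/+ (non-transgenic, n = 4, 9.8 to 10.85 months old), ikbkb+/+;P301S+ (P301S, n = 3, 9.15 to 10.75 months), ikbkb-/-;P301S+ (knockout P301S, n = 2, 8.39 and 9.15 months) and ikbkbCA;P301S+ (active IKKβ P301S, n = 2, 9.8 and 10.85 months). P301S mice are of the PS19 line, in which the mouse prion promoter drives human tau with the P301S mutation. All mice carried floxed alleles, either of Ikbkb, the gene for the kinase IKKβ that switches on NF-κB, or of a silent transgene for constitutively active IKKβ, and all were given tamoxifen. Only the knockout and active IKKβ mice carried the tamoxifen-inducible Cre, which replaces a copy of Cx3cr1 and acts in microglia. In these 2 groups the Cre allele, the loss of a Cx3cr1 copy and the change in IKKβ cannot be told apart. Knockout mice came from the floxed Ikbkb line (as did non-transgenic mice 1 and 2 and P301S mice 1 and 2), and active IKKβ mice came from the active IKKβ line (as did non-transgenic mice 3 and 4 and P301S mouse 3).

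Meg3, Rian and Mirg are transcribed from the same strand of the imprinted Dlk1-Dio3 domain, where Meg3 is read from the maternally inherited chromosome and microRNAs lie in the introns and exons of the transcripts downstream of it. Snhg11 and Snhg14 belong to the small nucleolar RNA host genes, whose transcripts carry snoRNAs in their introns. Miat, also called Gomafu, gathers in spots in the nuclei of neurons, and it holds repeats of UACUAAC, the sequence of the intron branch point that the splicing factor SF1 binds.

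On mm10 (GRCm38, GENCODE M21), Meg3 (ENSMUSG00000021268) spans chromosome 12 from 109541001 to 109571726 on the plus strand. Mirg (ENSMUSG00000097391) lies downstream on the same strand, from 109729764 to 109749460. Snhg11 (ENSMUSG00000044349) spans chromosome 2 from 158375638 to 158386145 on the plus strand, and GENCODE M21 lists it as protein coding whereas RefSeq lists it as a long non-coding RNA. Miat (ENSMUSG00000097767) spans chromosome 5 from 112213228 to 112229395 on the minus strand.

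The repeat that sets Miat apart from the other 3 is shown first. TACTAAC on the transcribed strand occurred 6 times in the longest transcript of Miat (9163 bases), and 0 times in the longest transcripts of Meg3 (14548 bases), Mirg (3822 bases) and Snhg11 (5864 bases). At least 1 copy was found in 613 of 13374 long non-coding genes (4.58%), and 2 genes (0.0150%), Miat included, had at least 6. Among the 305 of these genes with a transcript at least 0.5 times as long as that of Miat, 50 (16.4%) had at least 1 copy and 1 (0.328%), Miat itself, had at least 6. A stretch of exon 7 of 7 holds 3 of the 6 copies within 71 bases, printed from GRCm38 in the sense of the transcript, with the repeat in capitals. A match of letters is a description and does not show binding.
Miat, chr5:112216747-112216817, minus strand: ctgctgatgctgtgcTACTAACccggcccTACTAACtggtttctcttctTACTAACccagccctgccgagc

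The start of Meg3 is shown because Meg3 and Mirg, of the same domain, had the most alike patterns across cell types of any pair of the 4 RNAs. The window holds 300 bases around the RefSeq start on GRCm38.p6. Capitals mark TGACGTCA, the letters of a cyclic AMP response element, and a TATA stretch that holds TATAAA on both strands, in 2 overlapping matches. The motifs begin 57 and 29 bases before the start. TGACGTCA was found in 1.79% of 32851 mouse promoter windows of this length, TATAAA in 13.6% and both in 0.170%, and neither was found in the windows of Mirg, Snhg11 and Miat or in that of a second RefSeq start of Meg3.
Meg3, chr12:109540746-109541045, plus strand: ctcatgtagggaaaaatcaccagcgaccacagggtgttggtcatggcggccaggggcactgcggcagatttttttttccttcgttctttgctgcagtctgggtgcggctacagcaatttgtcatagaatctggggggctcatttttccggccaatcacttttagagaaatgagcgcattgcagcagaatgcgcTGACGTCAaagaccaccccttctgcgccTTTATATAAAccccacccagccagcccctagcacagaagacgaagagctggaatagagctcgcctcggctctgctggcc

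Both domain members span microRNAs, which this assay did not count. Within the GENCODE M21 spans given above, RefSeq places 14 hairpins and 26 mature microRNAs in Mirg, 1 hairpin and 3 mature microRNAs in Meg3, and 0 in Snhg11 or Miat. The RefSeq start of Mirg lies downstream of the GENCODE start, and some of the microRNAs counted for Mirg lie between the 2 starts. The products below lie downstream of both starts and are shown as examples of what the 2 host genes carry, with the seed (bases 2 to 8) in capitals, and the last pair is the only pair of these 29 products that shares a seed.
mmu-miR-770-5p, in Meg3: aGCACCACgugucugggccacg
mmu-miR-453, in Mirg: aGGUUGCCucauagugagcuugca
mmu-miR-496a-5p, in Mirg: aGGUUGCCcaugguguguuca

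Each mouse gave 7500 to 12315 barcodes with 72007219 to 93205362 UMIs in total, and 103065 nuclei were used after filtering. Nuclei were clustered without the member genes and named "like" a type by marker genes. Levels are in CPM, a gene's counts per 1000000 counts of that type in that mouse, and 9 types with at least 10 nuclei in every mouse were compared. The nuclei numbered 38293 excitatory, 13844 inhibitory and 9829 striatal projection neuron-like, 18523 oligodendrocyte-like, 6948 astrocyte-like, 4475 microglia-like, 2946 OPC-like (oligodendrocyte precursors), 1101 fibroblast-like and 592 mural-like. Striatal projection neurons are not cortical cells, although the tissue was labelled cortex, and how these nuclei came to be in the libraries was not tested. Among the nuclei used, 2630 had a barcode sequence that also occurred in another library.

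Some libraries stood apart for these RNAs. In the 6 glial and vascular types, P301S mouse 3 and active IKKβ mouse 1 held ranks 9 to 11 of 11 for Meg3, and non-transgenic mouse 4, knockout mouse 2 and active IKKβ mouse 2 held ranks 1 to 4. Of these, non-transgenic mouse 4 and active IKKβ mouse 2 were of the same line and the same age (9.8 months). Snhg11 was highest in knockout mouse 2 in all 6 types. Ikbkb in microglia-like nuclei was 124 to 155 CPM in non-transgenic, 132 to 151 in P301S, 111 and 119 in knockout and 150 and 165 in active IKKβ mice, so both knockout mice had the lowest values. Where the counted reads of Ikbkb lie relative to the floxed part is not given, so its level does not check the deletion. Cx3cr1, which has a copy replaced in the Cre-positive mice, was 691 to 969, 640 to 780, 702 and 776, and 513 and 660 CPM in the same order.

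Meg3 was highest in inhibitory neuron-like nuclei. Its lowest place was not settled, since it was held by astrocyte-like nuclei in sums of counts, but by OPC-like nuclei with doublets kept (2174 CPM) or with means over nuclei (1724 CPM). Its mean was 10441 ± 1287 CPM in inhibitory neuron-like nuclei (SD, n = 11 mice, range 8533 to 12473), 7415 ± 953 in excitatory (6144 to 8793) and 6401 ± 721 in striatal projection neuron-like nuclei (5738 to 7770). This order held in each of the 11 mice, although the ranges of neighbouring types overlapped. All neuron values lay above all others. Meg3 was 3212 ± 623 CPM in microglia-like nuclei (2246 to 4090), 3161 ± 543 in mural-like and 2581 ± 480 in oligodendrocyte-like nuclei. It was 1934 ± 566 in fibroblast-like, 1693 ± 315 in OPC-like and 1560 ± 355 in astrocyte-like nuclei. Microglia-like nuclei exceeded mural-like nuclei in 6 of 11 mice, so these neighbours could not be ordered, whereas mural-like exceeded oligodendrocyte-like nuclei, and these exceeded fibroblast-like nuclei, in 11 of 11. OPC-like nuclei exceeded astrocyte-like nuclei in 10 of 11.

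Mirg was also highest in the 3 neuron types. It was 213 ± 23.8 CPM in inhibitory neuron-like nuclei (162 to 253), 151 ± 17.8 in striatal projection neuron-like (129 to 193) and 133 ± 15.5 in excitatory neuron-like nuclei (114 to 161). Unlike for Meg3, striatal projection neuron-like nuclei stood above excitatory ones, in 10 of 11 mice. The next level was 56.6 ± 16.7 in mural-like nuclei, below every neuron value, and the remaining types ran from 44.3 ± 9.72 in microglia-like to 21.4 ± 5.37 in astrocyte-like nuclei. Fibroblast-like exceeded astrocyte-like nuclei in 6 of 11 mice, so the lowest place was not settled, and with doublets kept fibroblast-like nuclei held it (37.0 CPM). Mirg rested on 3 to 16 UMIs per mouse in mural-like and 2 to 23 in fibroblast-like nuclei, so its levels there are imprecise.

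Snhg11 was highest in inhibitory neuron-like nuclei too. It was 3330 ± 508 CPM in inhibitory (2751 to 4194), 2587 ± 429 in excitatory (2116 to 3223) and 1998 ± 283 in striatal projection neuron-like nuclei (1722 to 2399), in this order in 11 of 11 mice. Microglia-like nuclei followed at 1476 ± 302 (964 to 1846). They were below striatal projection neuron-like nuclei in every mouse, but the 2 ranges overlapped. Mural-like nuclei had 1428 ± 270, fibroblast-like 1275 ± 276, oligodendrocyte-like 1228 ± 261, OPC-like 746 ± 170 and astrocyte-like 739 ± 186, and the last pair could not be ordered (6 of 11 mice). With doublets kept (876 CPM) or means over nuclei (763 CPM) OPC-like nuclei were lowest.

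Miat did not follow the other 3. It was highest in excitatory neuron-like nuclei, at 342 ± 42.4 CPM (295 to 427), with no overlap with inhibitory neuron-like nuclei at 164 ± 33.1 (130 to 229). OPC-like nuclei came next at 111 ± 15.5 (93.8 to 133), below inhibitory neurons in 11 of 11 mice, then microglia-like nuclei at 97.8 ± 24.9. Oligodendrocyte-like (84.6 ± 19.1), fibroblast-like (84.0 ± 24.6) and mural-like nuclei (82.9 ± 36.6) could not be ordered, with the higher mean on top in 5 of 11 mice for each neighbouring pair. The mural-like level rested on 3 to 24 Miat UMIs per mouse. Miat was lowest in striatal projection neuron-like nuclei, at 52.0 ± 12.3 CPM (33.8 to 77.9), below astrocyte-like nuclei (58.6 ± 14.4) in 8 of 11 mice. Together the 4 RNAs made up 1.41% of all UMIs in inhibitory, 1.05% in excitatory, 0.483% in microglia-like and 0.238% in astrocyte-like nuclei.

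**Figure D1:**
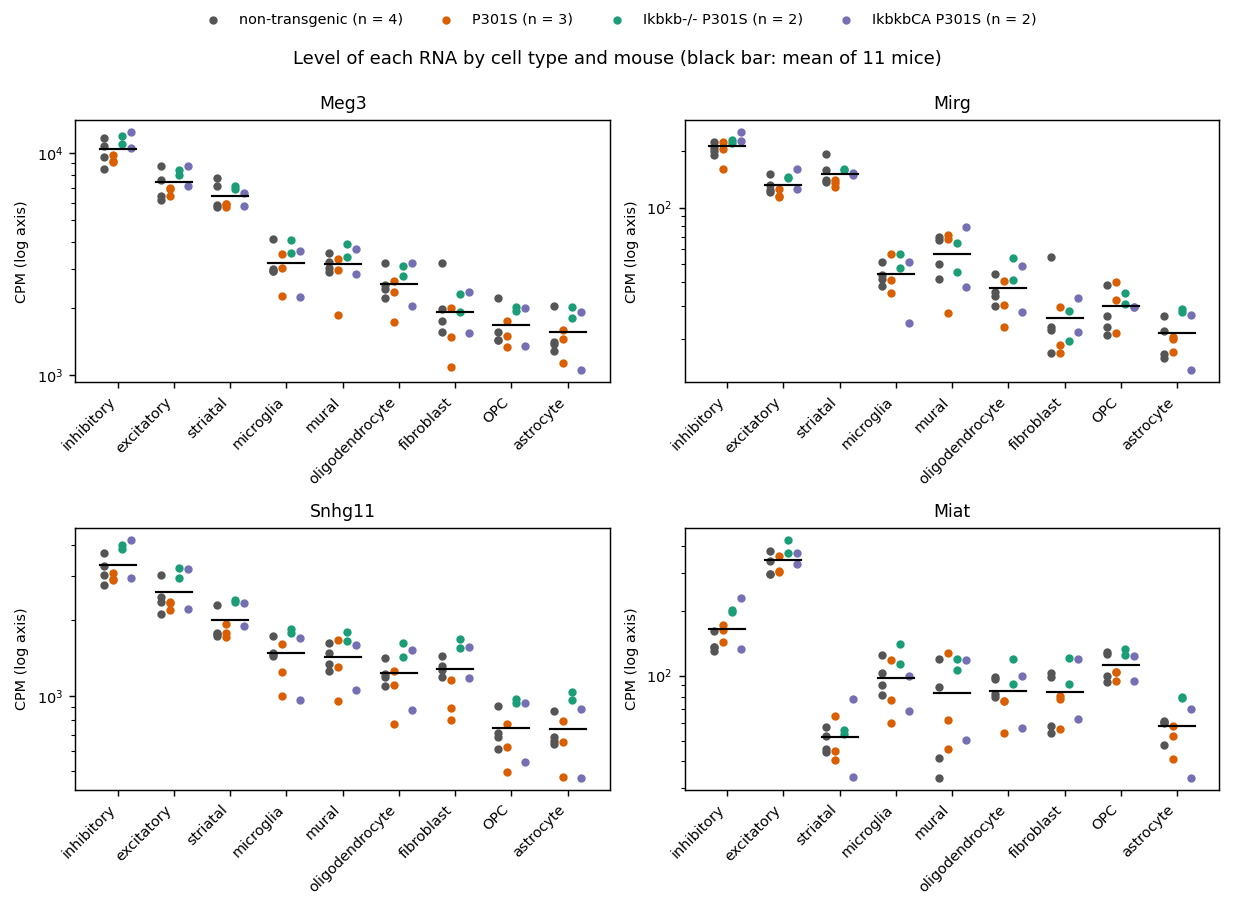
CPM (log axis) of Meg3, Mirg, Snhg11 and Miat in 9 cell types, 1 point per mouse, coloured by genotype, with a black bar at the mean of 11 mice. Neurons lie highest for Meg3, Mirg and Snhg11, whereas Miat is highest in excitatory neuron-like and lowest in striatal projection neuron-like nuclei.

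Within neurons, 20 of 30 clusters had at least 10 nuclei in every mouse. Clusters without enough raised markers stayed unnamed, as did those whose name went to another cluster with more markers raised. Unnamed clusters are called by their leading genes. Miat varied most. It was 505 ± 71.9 CPM (426 to 641) in layer 5 extratelencephalic excitatory-like nuclei and ranked first of 20 in each of the 11 mice. Extratelencephalic neurons of layer 5 send axons outside the telencephalon. Layer 6b excitatory-like nuclei held 417 ± 59.6 (ranks 2 to 3), upper-layer 328 ± 44.9, layer 6 corticothalamic 303 ± 36.6, claustrum-like 238 ± 30.5 and near-projecting excitatory-like nuclei 217 ± 42.0. Unnamed excitatory clusters lay between these. Those led by Rorb (8270 nuclei, 388 ± 41.2), Dcn (378 ± 57.5) and Il1rapl2 (344 ± 40.9) were above upper-layer nuclei, which ranked 6 of 20 by mean. The cluster led by Col27a1 (314 ± 35.9) was above layer 6 corticothalamic nuclei, and that led by Ndst4 (246 ± 56.4) above claustrum-like nuclei. The cluster led by Col27a1 had 4 of 5 claustrum markers raised, but the name went to the cluster with 5 of 5.

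Interneurons split for Miat by class. An unnamed, mainly inhibitory cluster led by Baiap3 and Prlr had 239 ± 32.7 CPM, above the named classes on average. Another, led by Gna14 and Pde3a (333 nuclei), had 88.3 ± 28.2. Lamp5 interneuron-like nuclei had 199 ± 39.3 CPM and Vip interneuron-like nuclei 184 ± 27.8, and these classes arise largely outside the medial ganglionic eminence. Sst interneuron-like nuclei had 155 ± 24, and Pvalb interneuron-like nuclei, fast-spiking cells, had 56.0 ± 14.2 (42.9 to 85.1), below Sst interneuron-like nuclei (114 to 205) with no overlap. Both named striatal projection neuron classes were lower still on average, at 43.6 ± 11.3 for Drd1 and 39.2 ± 7.69 for Drd2. These classes and Pvalb interneuron-like nuclei exchanged places between mice in ranks 17 to 20. An unnamed cluster of 1374 mainly striatal projection neuron-like nuclei, led by B020031H02Rik, was higher at 109 ± 40.1 (ranks 15 to 18).

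Meg3 varied less and placed other clusters on top. The cluster of 4849 mainly inhibitory nuclei led by Baiap3 and Prlr had 11912 ± 1606 CPM and ranked 1 or 2 in every mouse. Pvalb interneuron-like nuclei, near the bottom for Miat, had 11471 ± 1830 (ranks 1 to 3), Sst 10958 ± 1398, near-projecting excitatory-like 10612 ± 1208 and Vip 10516 ± 1368. Layer 5 extratelencephalic nuclei had 9700 ± 1264, and Drd2 striatal projection neuron-like nuclei were lowest at 5890 ± 697 (ranks 18 to 20). Mirg had the same 3 clusters on top (241 ± 23.4, 238 ± 34.9 and 225 ± 23.1 in the cluster led by Baiap3 and Prlr, Pvalb and Sst), but its lowest named clusters were upper-layer (124 ± 14) and layer 6 corticothalamic excitatory-like nuclei (124 ± 16).

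Snhg11 was 3550 ± 519 CPM in near-projecting excitatory-like nuclei (ranks 1 to 4). The clusters led by Gna14 and Pde3a (3542 ± 571) and by Baiap3 and Prlr (3539 ± 526) were level with these nuclei on average. Pvalb (3483 ± 558) and Lamp5 interneuron-like nuclei (3396 ± 552) followed, and these clusters exchanged places between mice. Drd2 (1925 ± 284) and Drd1 striatal projection neuron-like nuclei (1898 ± 260) were lowest. Near-projecting nuclei, with deep-layer cells that send axons only locally, were thus among the 4 highest clusters for both Meg3 and Snhg11 but rank 12 for Miat.

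**Figure D2:**
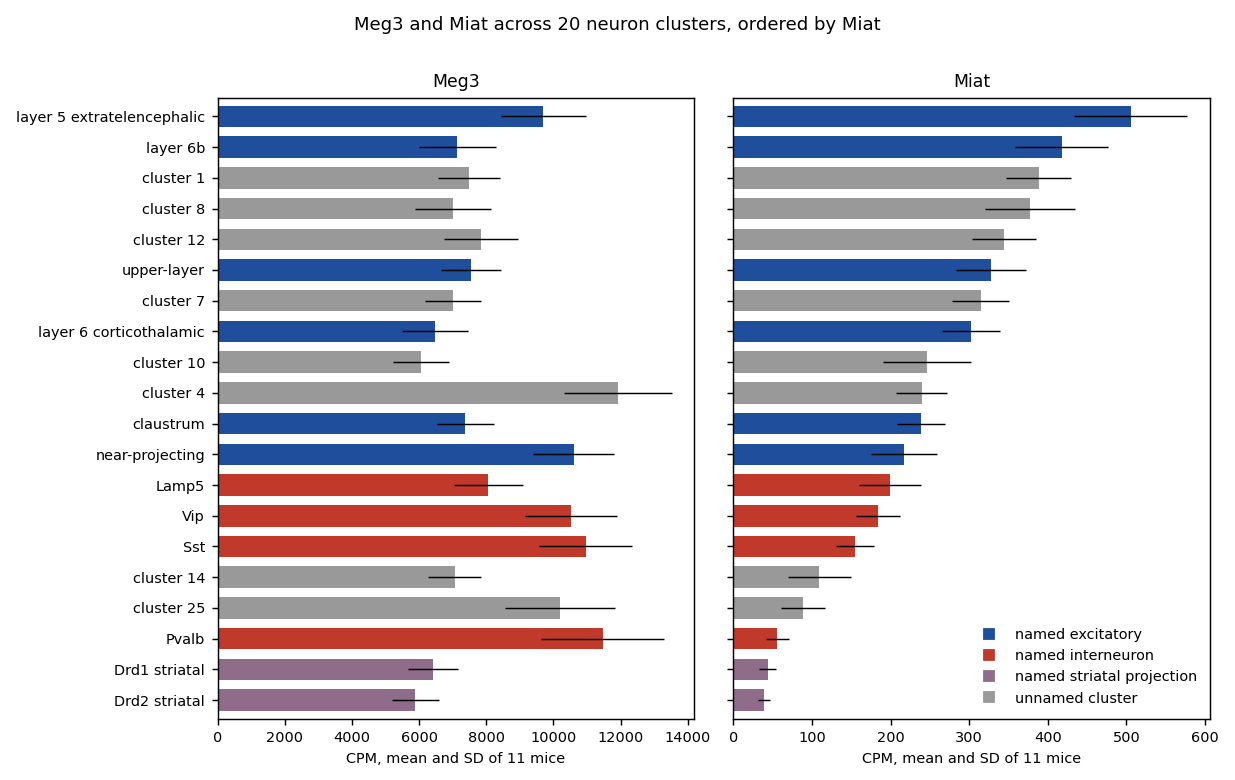
CPM of Meg3 (left) and Miat (right) in 20 neuron clusters, as means with SD over 11 mice, both ordered by Miat and coloured by neuron class. Layer 5 extratelencephalic nuclei lead for Miat at 505 CPM, and Pvalb interneuron-like nuclei are near the bottom for Miat at 56.0 but near the top for Meg3 at 11471.

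The genes with the nearest pattern were found by Pearson correlation of log2(CPM + 1) over 99 sums (11 mice by 9 types) among 4022 genes with a mean of at least 50 CPM. These sums share libraries and types, so the values are descriptions. For Meg3 the nearest was Mirg (r = 0.973), then Cntnap5a, a neurexin-family adhesion protein (0.957). For Mirg they were Meg3, Cntnap2, another neurexin-family protein (0.947), and Cacna1b, the N-type calcium channel (0.946). For Snhg11 they included Meg3 (0.951) and Cntnap5a (0.899). The nearest genes of Miat were Car10 (0.871), Cadps2, a regulator of dense-core vesicle release (0.862), and Fhod3, an actin-binding formin (0.858).

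The number of UMIs per nucleus gave a different view of glia from CPM. Meg3 UMIs per nucleus numbered 86.9 ± 19.8 in excitatory, 90.5 ± 20.96 in inhibitory and 61.2 ± 11.1 in striatal projection neuron-like nuclei (SD over 11 mice). In the 6 glial and vascular types they stayed between 6.48 and 7.93: 6.48 ± 1.79 in oligodendrocyte-like, 6.72 ± 1.94 in astrocyte-like, 6.65 ± 1.98 in microglia-like, 7.93 ± 2.08 in OPC-like, 7.16 ± 2.65 in fibroblast-like and 7.18 ± 1.64 in mural-like nuclei. The median UMIs of all genes per nucleus ranged from 2061 in microglia-like to 4496 in OPC-like nuclei. The higher CPM of Meg3 in microglia-like than in astrocyte-like nuclei thus came with near-equal Meg3 counts and a smaller total.

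Mirg UMIs per nucleus were 1.56 ± 0.350 in excitatory neuron-like nuclei and 0.0911 to 0.138 in glial and vascular types. Snhg11 had 30.5 ± 8.74 in excitatory neuron-like nuclei and 3.05 to 3.50 in 5 of these types, and 4.71 ± 1.31 in fibroblast-like nuclei. The leading genes of this cluster included Ttr, a choroid plexus gene, and at a finer resolution of 0.3 the fibroblast-like cluster held 968 nuclei and a separate ependymal or choroid plexus-like cluster 243, so the type may be mixed. Miat had 4.03 ± 1.02 in excitatory, 1.42 ± 0.444 in inhibitory and 0.499 ± 0.141 in striatal projection neuron-like nuclei. It had 0.191 to 0.309 in glial and vascular types except OPC-like nuclei, which at 0.522 ± 0.113 were level with striatal projection neuron-like nuclei.

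**Figure D3:**
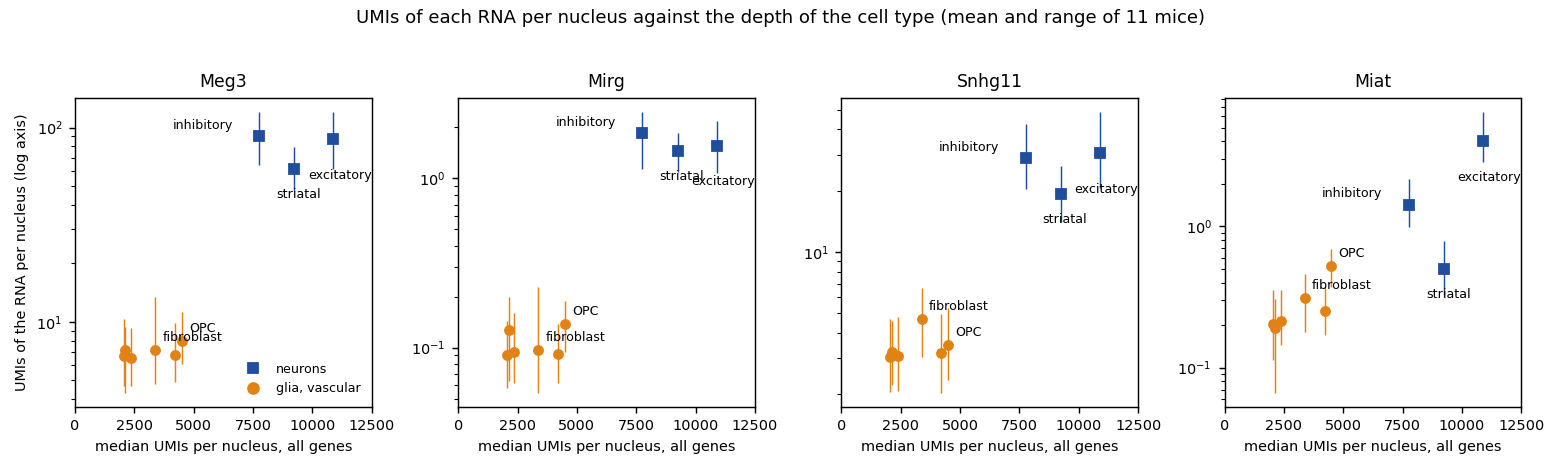
UMIs of each RNA per nucleus (log axis) against the median UMIs of all genes per nucleus of that type, as means with the range of 11 mice. Glial and vascular types (orange) lie near a level line for Meg3, from 6.48 to 7.93, and OPC-like nuclei stand above it for Miat at 0.522.

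Within types, the nuclei of each mouse were split into 4 equal bins by total UMIs. From the shallowest to the deepest bin of oligodendrocyte-like nuclei, median total UMIs rose 1.82-fold, Meg3 UMIs per nucleus rose 1.35-fold from 5.51 to 7.43, and Meg3 therefore went from 3228 to 2133 CPM. In astrocyte-like nuclei the folds were 2.01 and 1.35, and in fibroblast-like nuclei 2.08 and 1.47. Meg3 UMIs rose more nearly with depth in microglia-like (1.61 and 1.41), OPC-like (1.80 and 1.64) and mural-like nuclei (1.80 and 1.64). Meg3 CPM was higher in the shallowest than in the deepest bin in 11 of 11 mice in each of the 6 glial and vascular types, and Snhg11 CPM in 10 or 11 of 11. In excitatory neuron-like nuclei this held in 2 of 11 mice, and Meg3 UMIs rose 2.96-fold for a 2.48-fold rise in depth, while in inhibitory neuron-like nuclei it held in 0 of 11. The other RNAs did not divide neurons from glia in this way. In excitatory neuron-like nuclei Snhg11 went from 2774 to 2477 CPM and was higher in the shallowest bin in 11 of 11 mice, and Mirg was in 10 of 11. In inhibitory neuron-like nuclei Snhg11 was higher in the shallowest bin in 1 and Mirg in 2 of 11 mice. The inhibitory type pooled clusters with medians of 8425, 8258 and 4285 UMIs, so its bins can also differ in subtypes. The part of subtypes in these trends was not tested. Miat was higher in the shallowest bin in 10 of 11 mice in both oligodendrocyte-like and astrocyte-like nuclei. This held for Miat in 7 of 11 mice in microglia-like, 6 in OPC-like, 5 in fibroblast-like and 4 in mural-like nuclei. Striatal projection neuron-like nuclei had higher Meg3 CPM in the shallowest bin in 11 of 11 mice too. So did Miat there, which went from 75.6 CPM in the shallowest to 44.2 in the deepest bin.

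Set against excitatory neuron-like nuclei of the same mouse, microglia-like nuclei held 43.4% ± 6.76 of the Meg3 level in CPM (31.5% to 51.0%, n = 11 mice), 33.3% ± 6.23 of Mirg, 57.1% ± 8.51 of Snhg11 and 28.5% ± 6.08 of Miat. Oligodendrocyte-like nuclei held 34.8% ± 4.34, 27.8% ± 5.01, 47.4% ± 5.98 and 24.7% ± 4.34. Astrocyte-like nuclei were lowest for Meg3 (20.95% ± 3.27) and Mirg (15.97% ± 2.78). OPC-like nuclei had 32.6% ± 2.72 for Miat, above the 22.8% ± 2.36 for Meg3. Averaged over the 6 types, the share was 44.4% ± 5.39 for Snhg11, 31.8% ± 4.26 for Meg3, 27.0% ± 4.29 for Mirg and 25.3% ± 3.37 for Miat.

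Coding transcripts that glia should lack were found in them too. Of 16 neuronal coding transcripts in microglia-like nuclei, the share ran from 5.56% for Rbfox3, a neuronal splicing factor, over 30.7% for Slc17a7, the vesicular glutamate transporter, and 43.2% for Snap25, a synaptic release protein, to 63.1% ± 48.3 for Nefm, a neurofilament subunit. Gad1, an enzyme of GABA synthesis that excitatory neurons lack, is left out of this range. The median of the 16 was 28.2% in microglia-like and 24.6% in oligodendrocyte-like nuclei. Meg3 exceeded 13 of the 16 in both types, Snhg11 13 and 14, Mirg 10 in both, and Miat 8 in both. RNA from other nuclei in the droplets gives counts of this kind, and its part in the glial levels of the 4 RNAs was not tested.

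**Figure D4:**
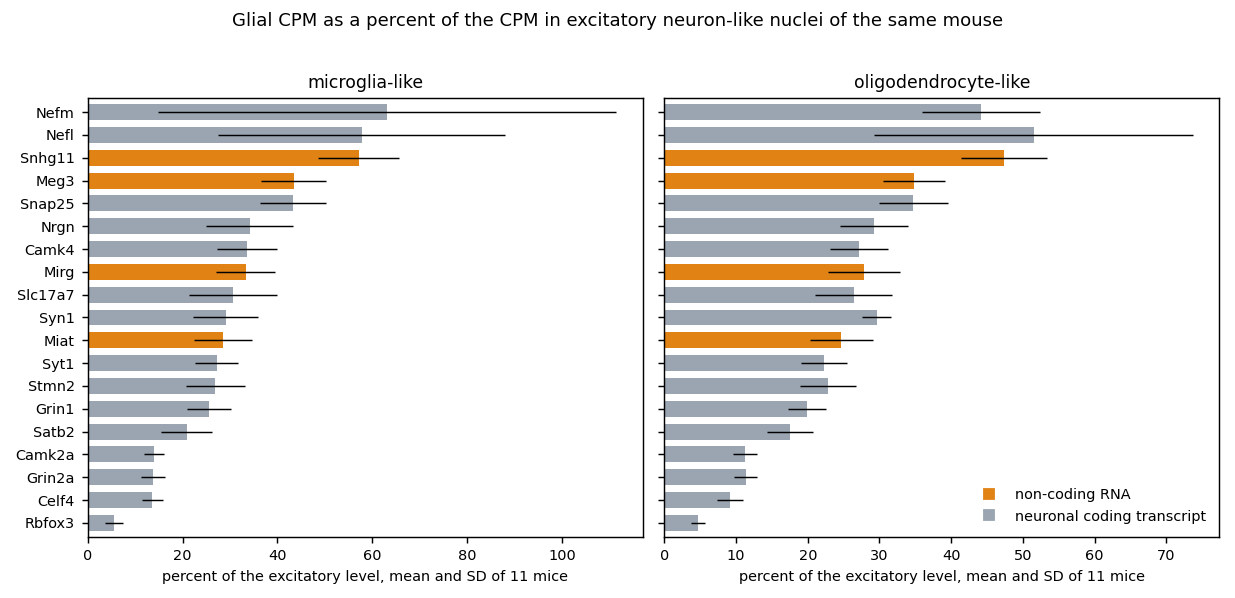
CPM in microglia-like (left) and oligodendrocyte-like nuclei (right) as a percent of the CPM in excitatory neuron-like nuclei of the same mouse, mean and SD of 11 mice. The 4 non-coding RNAs (orange, 28.5% to 57.1% in microglia-like nuclei) lie among the neuronal coding transcripts (grey, Gad1 left out).

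The proportion of Snhg11 to Meg3 differed between the named neuron types and glia, and those of Miat and Mirg varied by type. Snhg11 had 34.8 ± 2.50 counts per 100 Meg3 counts in excitatory, 31.8 ± 1.96 in inhibitory and 31.2 ± 2.93 in striatal projection neuron-like nuclei, but 43.8 to 47.4 in oligodendrocyte-, astrocyte-, microglia-, OPC- and mural-like nuclei and 67.7 ± 10.6 in fibroblast-like nuclei. The ratio exceeded that of excitatory neurons in 11 of 11 mice in each of the 6 types. Summed over types it was 33.7 ± 2.12 in neurons and 47.4 ± 3.097 in glial and vascular nuclei, and the ranges (30.8 to 38.7 and 42.9 to 51.4) did not overlap. A shallow cluster that stayed unnamed (6116 nuclei, median 980 UMIs) had 3 of 7 excitatory neuron markers raised. Its ratio was 45.6 ± 4.38 (38.4 to 52.7), near that of glia. Since this cluster was not named as a neuron or glial type, its ratio does not show whether the proportion divides shallow neurons from glia.

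Miat had 4.63 ± 0.349 counts per 100 Meg3 counts in excitatory, 1.56 ± 0.220 in inhibitory and 0.813 ± 0.174 in striatal projection neuron-like nuclei. OPC-like nuclei, at 6.66 ± 0.745, exceeded excitatory neurons in 11 of 11 mice, whereas oligodendrocyte-, astrocyte-, microglia- and mural-like nuclei (2.59 to 3.76) did so in 0 of 11 and fibroblast-like nuclei in 5. Summed over types, Miat had 3.45 ± 0.297 in neurons (3.05 to 4.09) and 3.72 ± 0.378 in glial and vascular nuclei (3.22 to 4.41), and these ranges overlapped. Mirg had 1.79 to 2.36 counts per 100 Meg3 counts in neurons and 1.34 to 1.78 in glial and vascular types, where OPC-like nuclei exceeded excitatory neurons in 4, mural-like nuclei in 5 and fibroblast-like nuclei in 1 of 11 mice. Summed over types, Mirg had 1.92 ± 0.0988 in neurons and 1.45 ± 0.0886 in glial and vascular nuclei. The unnamed shallow cluster had 1.55 ± 0.217 for Mirg and 3.45 ± 0.486 for Miat.

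To compare shares of nuclei across depths, each nucleus was thinned to 1000 UMIs, and shallower nuclei were left out (50 of 4475 microglia-like, 200 of 18523 oligodendrocyte-like and 2 of 38293 excitatory). A Meg3 UMI was then found in 94.3% ± 3.58 of microglia-like nuclei (99.3% without thinning), 90.2% ± 4.12 of oligodendrocyte-like (99.2%) and 99.6% ± 0.215 of excitatory neuron-like nuclei (100%). Snhg11 was found in 75.5% ± 7.25, 69.9% ± 7.61 and 90.8% ± 3.26 (92.4%, 92.5% and 99.96% without thinning). Mirg was found in 4.41% ± 1.75, 3.81% ± 1.11 and 12.4% ± 1.52 (8.57%, 8.83% and 70.4%), and Miat in 10.4% ± 2.85, 8.46% ± 1.62 and 28.5% ± 2.74 (18.1%, 18.7% and 92.3%). Higher numbers of UMIs were mostly found in neurons. At 1000 UMIs, 24.1% of excitatory but 0.791% of microglia-like and 0.327% of oligodendrocyte-like nuclei had 10 or more Meg3 UMIs.

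Genotypes were compared in each type by edgeR's quasi-likelihood test on counts summed per mouse, with calls at a Benjamini-Hochberg adjusted p under 0.05 over all genes tested and an absolute log2 fold change over 0.1. Of 36 pairs of an RNA and a type, 35 passed the filter on low counts (Mirg in mural-like nuclei did not). The contrasts were P301S minus non-transgenic, knockout P301S minus P301S, and active IKKβ P301S minus P301S. They share the P301S mice, so they are not independent of each other. Called were 0 of 35 in the P301S contrast (over all genes and types, 0.0176% of tests were called), 0 of 35 in the knockout contrast (0.00195%), 0 of 35 in the active IKKβ contrast (0.135%) and 0 of 35 in the test of any difference between genotypes (0.26%). At an unadjusted p under 0.05 the counts were 3, 19, 2 and 4 of 35, against 4.46%, 8.62%, 6.02% and 6.86% of all tests, and DESeq2 gave 0 calls and 3, 18, 1 and 5. Without the filter on low counts, edgeR called 8 of 36 knockout tests of the RNAs. Over all genes it then called 915 of 197685 knockout tests, against 2 of 102325 with the filter. The sums of 1 mouse are shared by all 4 RNAs and by all types, so these 35 tests are not independent.

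Meg3 in microglia-like nuclei was 3025, 2950, 2959 and 4090 CPM without the tau transgene. The P301S group had 3508, 3030 and 2279 CPM, the knockout group 3549 and 4061, and the active IKKβ group 2246 and 3636. Both knockout mice stood above all P301S mice, by little in the nearest pair, and the active IKKβ mice took the lowest place and one near the top. The log2 fold change was -0.16 (SE 0.17, adjusted p = 0.864) for P301S, 0.37 (SE 0.20, adjusted p = 0.596) for the knockout and -0.02 (SE 0.20, adjusted p = 0.9998) for active IKKβ. In oligodendrocyte-like nuclei Meg3 was 2218, 2437, 2557 and 3218, then 2659, 2379 and 1745, then 2799 and 3101, and then 2055 and 3218 CPM in the same order of groups. The knockout log2 fold change there was 0.37 (SE 0.19, adjusted p = 0.432).

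Snhg11 in microglia-like nuclei was 1474, 1465, 1443 and 1731 CPM in non-transgenic, 1601, 1239 and 993 in P301S, 1773 and 1846 in knockout and 964 and 1702 in active IKKβ mice. Knockout mice were above both other P301S-carrying groups, with a log2 fold change of 0.51 against P301S (SE 0.20, adjusted p = 0.487). The lowest unadjusted p of the knockout contrast among the RNAs was for Snhg11 in OPC-like nuclei. It was 615, 687, 711 and 908 CPM there in non-transgenic, 775, 624 and 497 in P301S, 938 and 967 in knockout and 547 and 937 in active IKKβ mice (log2 fold change 0.59 for the knockout, SE 0.17, adjusted p = 0.380). Snhg11 in fibroblast-like nuclei had the largest knockout log2 fold change, 0.76 (SE 0.22, adjusted p = 0.808).

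Miat in oligodendrocyte-like nuclei was 79.9, 81.9, 96.1 and 98.7 CPM in non-transgenic, 76.0, 76.4 and 54.0 in P301S, 91.6 and 119 in knockout and 57.2 and 99.3 in active IKKβ mice. All P301S mice were below all non-transgenic and both knockout mice. The log2 fold changes were -0.39 for P301S (SE 0.17, adjusted p = 0.940) and 0.61 for the knockout (SE 0.20, adjusted p = 0.309, the lowest adjusted p of the 35). In microglia-like nuclei Miat was 81.2, 90.0, 102 and 125, then 76.8, 118 and 60.5, then 114 and 139.5, and then 68.5 and 99.6 CPM, and here P301S mouse 2 was above knockout mouse 1. The knockout log2 fold change was 0.60 (SE 0.25, adjusted p = 0.519). In excitatory neuron-like nuclei, where Miat is highest, it was 295, 295, 340 and 377, then 304, 302 and 356, then 371 and 427, and then 327 and 370 CPM, and the knockout log2 fold change was 0.34 (SE 0.11, adjusted p = 0.489).

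Mirg in excitatory neuron-like nuclei was 121, 124, 132 and 152 CPM in non-transgenic, 126, 114 and 115 in P301S, 145 and 143 in knockout and 126 and 161 in active IKKβ mice. Both groups with altered IKKβ were above all P301S mice, the active IKKβ mice by less than 1 CPM in the nearest pair. The log2 fold changes were 0.31 (SE 0.12, adjusted p = 0.521) for the knockout and 0.27 (SE 0.12, adjusted p = 0.822) for active IKKβ. In oligodendrocyte-like nuclei its knockout log2 fold change was 0.62 (SE 0.24, adjusted p = 0.338).

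The direction was shared across RNAs and types although no pair was called. In the knockout contrast, 35 of 35 log2 fold changes were positive with a median of 0.42. In 26 of 35 pairs both knockout mice were above all 3 P301S mice, and in 0 both were below, where 12.5% and 14.6% of all tests had such groups. In the P301S contrast 32 of 35 were negative (median -0.18), and the groups did not overlap in 2 pairs, both lower in P301S mice (Miat in oligodendrocyte-like and Snhg11 in fibroblast-like nuclei), where 1.65% of all tests were lower and 3.69% higher in this way. In the active IKKβ contrast 32 of 35 were positive (median 0.19), and 6 pairs did not overlap, all higher (10% of all tests were higher and 10.8% lower in this way). Without P301S mouse 3, the sole P301S mouse of the active IKKβ line, the knockout median was 0.30 with 33 of 35 positive and 8 at an unadjusted p under 0.05. The medians were then -0.06 for P301S and 0.07 for active IKKβ. Without active IKKβ mouse 1 the active IKKβ median was 0.43, and without active IKKβ mouse 2 it was -0.12, so that its sign rested on 1 library. The P301S median was -0.10 without non-transgenic mouse 4 (34 tested) and -0.27 without P301S mouse 1. The knockout median was 0.45 without knockout mouse 1 and 0.37 without knockout mouse 2, and each then rested on 1 knockout mouse. Age moved with genotype, since the knockout mice were the youngest group, and with age as a covariate the knockout median was 0.15 with 29 of 35 positive and 2 at an unadjusted p under 0.05. Depth also moved with genotype. Barcodes numbered 11145 to 12315 in P301S, 9321 to 10267 in non-transgenic, 10578 and 7500 in knockout and 10976 and 11293 in active IKKβ libraries. UMIs totalled 72007219 to 83019331, 73039986 to 88427541, 89213153 and 78160126, and 86132685 and 93205362 in the same order. Every P301S library thus had fewer UMIs per barcode than every other library, and the part of depth in the shared direction was not tested.

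Neuronal coding transcripts, of which none was called, also had positive medians in the knockout contrast. Their median log2 fold change in the knockout contrast was 0.41 in oligodendrocyte-like (16 tested), 0.47 in astrocyte-like (16), 0.33 in microglia-like (14), 0.20 in OPC-like (14), 0.28 in mural-like (9) and 0.68 in fibroblast-like nuclei (12). It was 0.11 in excitatory, 0.12 in inhibitory and 0.10 in striatal projection neuron-like nuclei, with 0 called in any type or contrast. Summed over the 16, their level in microglia-like nuclei was 2785 to 3554 CPM in non-transgenic, 2406 to 3063 in P301S, 3143 to 3440 in knockout and 2551 to 2790 in active IKKβ mice, with at most 1 of the 16 at 0 in a mouse. In oligodendrocyte-like nuclei it was 2160 to 2801, 1826 to 2450, 2619 to 2634 and 2313 to 2522 CPM. The part of neuronal transcripts from other nuclei in the glial differences was not tested. The 10 microglia markers summed to 8705 to 10037, 8435 to 8963, 8093 to 9511 and 7051 to 8245 CPM in microglia-like nuclei, with 0 at zero.

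**Figure D5:**
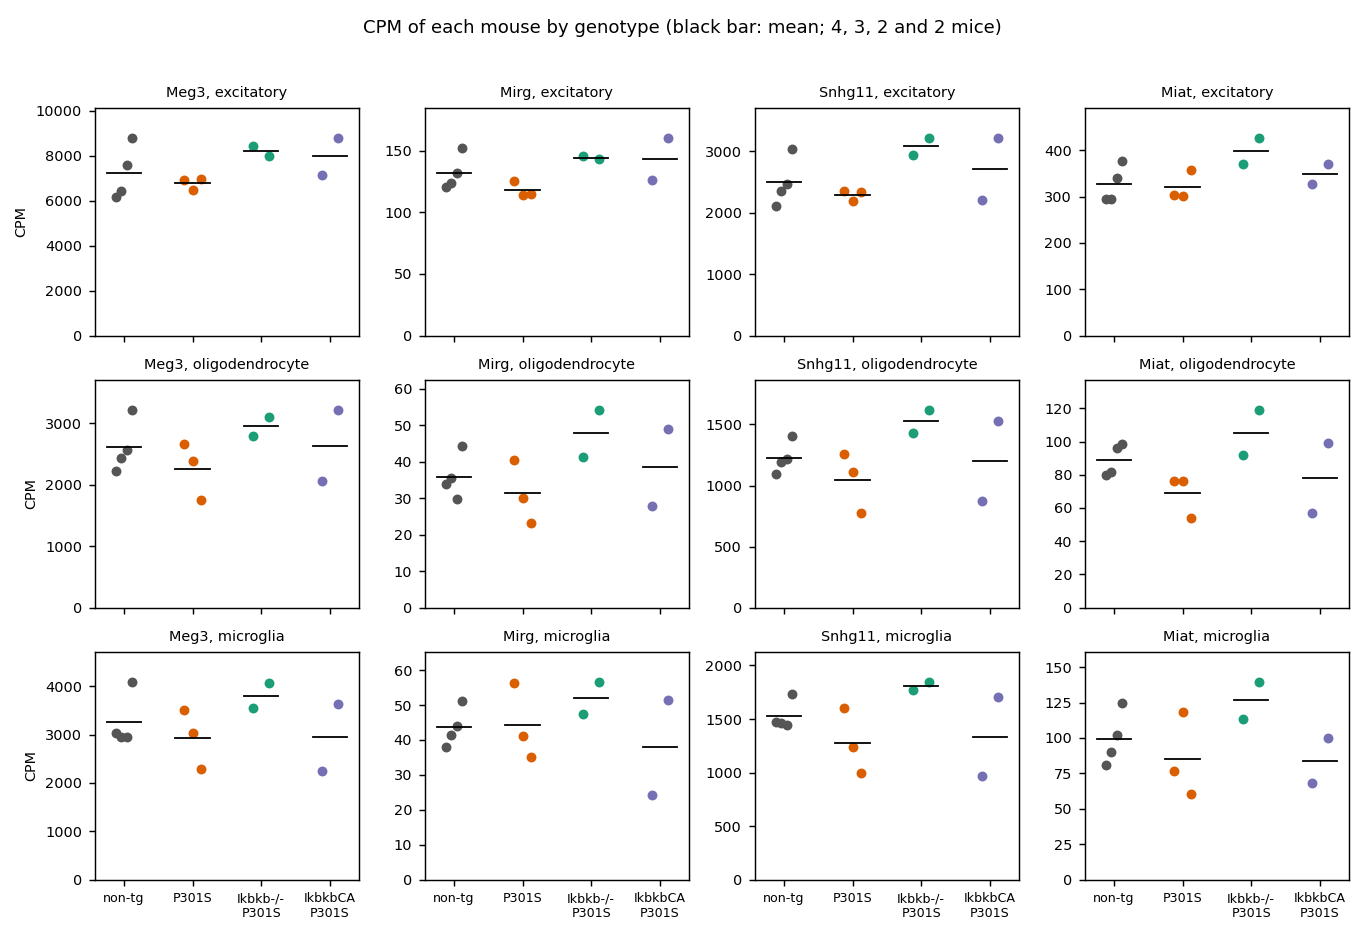
CPM of each RNA in excitatory neuron-like (top), oligodendrocyte-like (middle) and microglia-like nuclei (bottom) by genotype, 1 point per mouse, with a black bar at the group mean of 4, 3, 2 and 2 mice. The 2 knockout mice lie above the 3 P301S mice in most panels, for example 1773 and 1846 against 993 to 1601 CPM for Snhg11 in microglia-like nuclei, and the 2 active IKKβ mice lie far apart in some panels, for example at 964 and 1702 CPM in that one.

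Neighbouring genes and other non-coding RNAs were read by the same tests. Of the protein-coding and other genes of the Dlk1-Dio3 domain listed, 6 of 7 were found and 25 pairs of gene and type were tested. In any contrast 0 were called, and knockout median log2 fold changes were -0.56 to 0.49 by type. The -0.56 was that of 1 tested gene in microglia-like nuclei. Of 13 listed genes near Snhg14, such as Ube3a and Snrpn, 13 were found, and 0 of 66 pairs were called (knockout medians -0.12 to 0.40). Of 14 other small nucleolar RNA host genes 5 were found, with 0 of 22 called (knockout medians -0.17 to 0.35). The 0.35 was likewise that of 1 tested gene in microglia-like nuclei. Of 16 other long non-coding RNAs 11 were found, with 0 of 91 called in the 3 contrasts (knockout medians -0.19 to 0.32). Pvt1 was called in microglia-like nuclei in the test of any difference between genotypes (adjusted p = 0.0369), with log2 fold changes of 0.44 (SE 0.14) for P301S, -0.10 (SE 0.17) for the knockout and 0.30 (SE 0.16) for active IKKβ.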

How the data were processed

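Nuclei were sorted from 11 mouse cortices and sequenced with the 10x 3′ v3 chemistry. The deposited count matrices hold UMI counts per gene and nucleus, which the authors made with Cell Ranger 3.1.0 on mm10 with intronic reads counted, and their notes also name Seurat 3.0. Depth was 72007219 to 93205362 UMIs per mouse. Reads from overlapping genes cannot be told apart where the counting of strand is not given in the sources used here. The 4 RNAs and the gene lists were chosen with earlier results of these data known.

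Of 114118 barcodes, those with under 300 or over 8000 genes or over 5% mitochondrial UMIs were left out, as were 9474 doublets called from simulated doublets (8.42% of 112539). The remaining 103065 nuclei were clustered without the member genes (Leiden, leidenalg 0.10.2, scikit-learn 1.9.0, resolution 0.1). Clusters were named from markers, with at least 3 raised, and 6116 nuclei stayed unnamed. Endothelial-like nuclei (398) were left out since they were found in only 10 of the 11 mice. The lowest number among these mice was 8, under the minimum of 10 per mouse. Counts were summed per mouse and type, and genotypes were compared with edgeR 4.0.16 in R 4.3.3 (TMM, filterByExpr, quasi-likelihood test, all 4 groups in 1 fit per type), with Benjamini-Hochberg adjustment over the genes tested in a type. DESeq2 1.42.0 was an alternative. The biological coefficient of variation was 9.74% to 25.5% by type. Named genes were the members, listed genes that were called, and the 3 genes of the nearest pattern for each member (1 of these genes is not reported here), and genes given as examples of the neuronal coding list were chosen after their values were seen. The labels name no litters or batches, and sample titles carry the number 1 or 2. Mice of 1 line sometimes had the same age across groups (10.85 months for non-transgenic mouse 3 and active IKKβ mouse 1, 9.8 for non-transgenic mouse 4 and active IKKβ mouse 2, 9.15 for P301S mouse 1 and knockout mouse 2, and 10.03 for non-transgenic mice 1 and 2 and P301S mouse 2). Whether these were littermates or were processed together was not tested. The promoter windows and microRNAs are from RefSeq (GRCm38.p6), and the Miat stretch is from the GRCm38 genome. Alternatives were no scaling, DESeq2, totals without the members, no filter, doublets kept, line or age as a covariate, the title number as a block, each mouse left out, a resolution of 0.3, means over nuclei and no thinning.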

Additional observations from a re-analysis of the deposited data

Results flagged for a closer look

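In 36 sets of 4 non-transgenic values (4 RNAs in 9 types), 7 had a value far from the other 3 by Dixon's 95% limit. Chance gives about 1 in 20 for independent sets. These sets share the same 4 libraries and are not independent, so their number cannot be judged against that rate. In 6 of them non-transgenic mouse 4 was highest. These were Meg3 in microglia-like (4090 CPM), astrocyte-like (2055 CPM) and OPC-like nuclei (2226 CPM), Snhg11 in microglia-like (1731 CPM) and striatal projection neuron-like nuclei (2290 CPM), and Mirg in fibroblast-like nuclei (54.3 CPM). Mirg in fibroblast-like nuclei had 2 to 23 UMIs per mouse over the 11 mice. In the remaining set Miat in astrocyte-like nuclei was lowest in non-transgenic mouse 1 (47.6 CPM).

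A cluster of 6116 nuclei with a median of 980 UMIs was left out of the comparisons of named types and of genotypes. It had 3 of 7 excitatory neuron markers raised, but stayed unnamed because its depth was far below that of its samples and no such marker was among its 10 leading genes, of which 8 were mitochondrial. It held 8315 CPM of Meg3, 129 of Mirg, 3791 of Snhg11 and 289 of Miat on average over the 11 mice.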

How the results depend on the processing

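No member was called in any contrast under no scaling, DESeq2, totals without the members, doublets kept, line or age as a covariate, or with any 1 mouse left out (0 to 0 calls). Without the filter on low counts edgeR called 8 of the members' 36 tests in the knockout contrast and 6 of 36 in the test of any difference. The 8 were all 4 members in oligodendrocyte-like, Meg3, Snhg11 and Miat in astrocyte-like and Snhg11 in OPC-like nuclei. Over all genes that setting gave 810, 915, 1296 and 2833 calls of 197685 tests in the P301S, knockout and active IKKβ contrasts and the test of any difference. With the filter there were 18, 2, 138 and 266 of 102325, and the cause was not tested. DESeq2 gave 21, 30, 143 and 373, the line as a covariate 41, 8, 77 and 196, age 14, 0, 139 and 229, doublets kept 13, 0, 77 and 127, and leaving out a mouse 10 to 42, 0 to 10, 70 to 240 and 209 to 351. DESeq2 moved the active IKKβ calls from 88 higher and 50 lower to 67 and 76. Mirg in microglia-like nuclei had a knockout log2 fold change of -0.37 with age as a covariate (SE 0.37, against 0.30), and Snhg11 in OPC-like nuclei had -0.21 for active IKKβ without active IKKβ mouse 2 (SE 0.19) and 0.55 without active IKKβ mouse 1, against 0.22 with both. The cause was not tested for either.

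With the title number as a replicate block, 0 members were called in each contrast. The deviations of same-numbered samples had a mean r of 0.006 over 198 pairs, from -0.47 to 0.30, so not every pair deviated together. In groups of 2 the deviations mirror each other, and numbers recur in both lines, so this check says little. Pairs that share line, number and age were not looked at separately.

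With doublets kept, the mean share of the excitatory level over 6 glial and vascular types was 39.8% for Meg3, 36.1% for Mirg, 50.6% for Snhg11 and 31.4% for Miat, and 11 of 36 levels moved by over 1 SD. A resolution of 0.3 and means over nuclei moved 0 of 36. Without thinning, 99.3% of microglia-like nuclei had a UMI of Meg3, 8.57% of Mirg, 92.4% of Snhg11 and 18.1% of Miat.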
